A study of Mus musculus with 16 samples.

Results

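Scd1 and 9 further genes of fatty acid synthesis (Scd2, Fasn, Acaca, Acly, Elovl6, Srebf1, Thrsp, Mlxipl and Me1) were followed through RNA-seq of mouse skeletal muscle. They were taken by gene symbol and are 10 of the 55487 genes of the expression table; all 10 had enough counts to be tested. Muscle was sampled from mice labelled CHCHD4 Tg (Tg) after treadmill training, untrained Tg mice, wild-type (WT) mice after treadmill training and untrained WT mice, with 4 libraries in each of the 4 groups. CHCHD4 is a mitochondrial intermembrane-space protein that oxidises imported proteins, and the design asked which transcripts go with it and with exercise training. The labels give no strain, age, sex, muscle, training schedule or promoter of the transgene of these mice. Nor is it stated that each library is a mouse of its own, so the p-values below speak for the scatter among libraries.

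De novo lipogenesis builds fatty acids from citrate that leaves the mitochondrion. Acly splits that citrate to acetyl-CoA, Acaca carboxylates it to malonyl-CoA, Fasn joins the units to palmitate with NADPH that Me1 helps to supply, Elovl6 lengthens palmitate, and the stearoyl-CoA desaturases Scd1 and Scd2 insert a double bond that makes monounsaturated fatty acids. Insulin drives the pathway through SREBP-1, the product of Srebf1, and glucose drives it through ChREBP, the product of Mlxipl, while Thrsp (Spot 14) is a thyroid-hormone- and diet-responsive promoter of the pathway. White adipocytes and hepatocytes run it at a high rate and muscle fibres at a low one, and SCD1 in muscle has been tied to the balance between storing and burning fat.

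Library totals lay between 40888325 and 61703724 counts. Chchd4 measured 18.1 to 22.2 CPM (counts scaled to library size after TMM normalization) in Tg libraries and 6.88 to 8.98 CPM in WT libraries, so the genotype labels held in all 16. The tissue label held as well: the muscle creatine kinase gene Ckm was between 5082 and 8130 CPM in every library. Alb, a liver transcript, exceeded 10 CPM in 3 libraries (Tg untrained replicate 2, WT trained replicate 4 and WT untrained replicate 2) and was at most 0.236 CPM in the others. Myh7, the slow-twitch myosin, exceeded 10 CPM in 4 libraries (Tg untrained replicates 2 and 3, WT trained replicate 3 and WT untrained replicate 2). Where leaving out either set changed the sign or the call of a printed log2 fold change of a member, or moved it by over 1.5 times, that value stands beside it.

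Scd1 was the single member called for training, with lower mean levels in trained muscle of both genotypes. It measured 23.8, 15.2, 26.4 and 14.5 CPM in the Tg trained libraries, against 144, 72.9, 79.3 and 22.5 CPM in the Tg untrained libraries. In WT muscle it measured 17.5, 28.3, 30.6 and 35.8 CPM after training, against 77.2, 141, 105 and 51.1 CPM without training. The WT groups did not overlap; the Tg groups overlapped by 1 library, Tg untrained replicate 4, which at 22.5 CPM lay inside the trained range. These levels rest on 749 to 7941 counts per library. In order of the mean the groups ran Tg trained (19.98 ± 6.01 CPM), WT trained (28.0 ± 7.68), Tg untrained (79.7 ± 49.9) and WT untrained (93.6 ± 38.6; mean ± SD, n = 4 each), and the ranges of each neighbouring pair in that order overlapped.

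Averaged over the genotypes, Scd1 fell with training by 1.87 on the log2 scale (log2 fold change -1.87, SE 0.302, 95% interval -2.51 to -1.23, adjusted p = 0.0149, edgeR quasi-likelihood test with Benjamini-Hochberg adjustment over 17490 genes). In that comparison 0.263% of tested genes were called lower. In these bulk libraries, fewer cells of a type and less RNA per cell cannot be told apart. Within a genotype the log2 fold change (log2FC) of Scd1 did not pass the threshold: it was -2.00 in Tg (SE 0.430, adjusted p = 0.140) and -1.74 in WT (SE 0.425, adjusted p = 0.215, edgeR). Leaving out Tg trained replicate 4 put the averaged response just outside the threshold (log2FC -1.81, adjusted p = 0.0509, edgeR), as did dropping the 4 libraries high in Myh7 (log2FC -1.79, adjusted p = 0.0692) and fitting the replicate number as a block (log2FC -1.76, adjusted p = 0.0542). Whether the replicate numbers pair the samples is not known.

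Scd1 lies on the minus strand of chromosome 19 (GRCm38, 44394455 to 44407879, 6 exons in its longest transcript), at one end of a cluster of 4 desaturase genes. Scd4 lies 47711 bases from it, Scd2 (44293674 to 44306864) lies a further 26227 bases away and Scd3 another 49657. The isoforms are similar in sequence and the authors' counting divided shared reads among them, so the split between copies is uncertain. Scd3 and Scd4 were close to absent, with at most 4.11 and 9.05 expected counts in any library.

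Scd2, the isoform best known from brain, was not called in any comparison. It measured 16.5, 18.1, 19.2 and 17.2 CPM in Tg trained libraries, against 18.0, 17.7, 22.9 and 12.3 CPM in Tg untrained libraries. In WT muscle it measured 18.8, 15.1, 13.4 and 19.6 CPM after training, against 22.7, 15.1, 19.7 and 17.3 CPM without. All 4 groups overlapped, and the log2FC for training averaged over genotypes was -0.08 (95% interval -0.32 to 0.17, adjusted p = 0.803, edgeR), or 0.04 without the Myh7 libraries and -0.17 without the Alb libraries. Per kilobase of exon, Scd1 stood at 4.09 ± 1.23 CPM per kb in Tg trained muscle, 16.3 ± 10.2 in Tg untrained, 5.73 ± 1.57 in WT trained and 19.1 ± 7.89 in WT untrained muscle, while Scd2 stayed between 3.06 and 3.42 CPM per kb in the means of the 4 groups (SD, n = 4). In Tg trained muscle the per-kilobase levels of the 2 isoforms therefore differed by less than the spread of Scd1 between libraries.

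**Figure D1:**
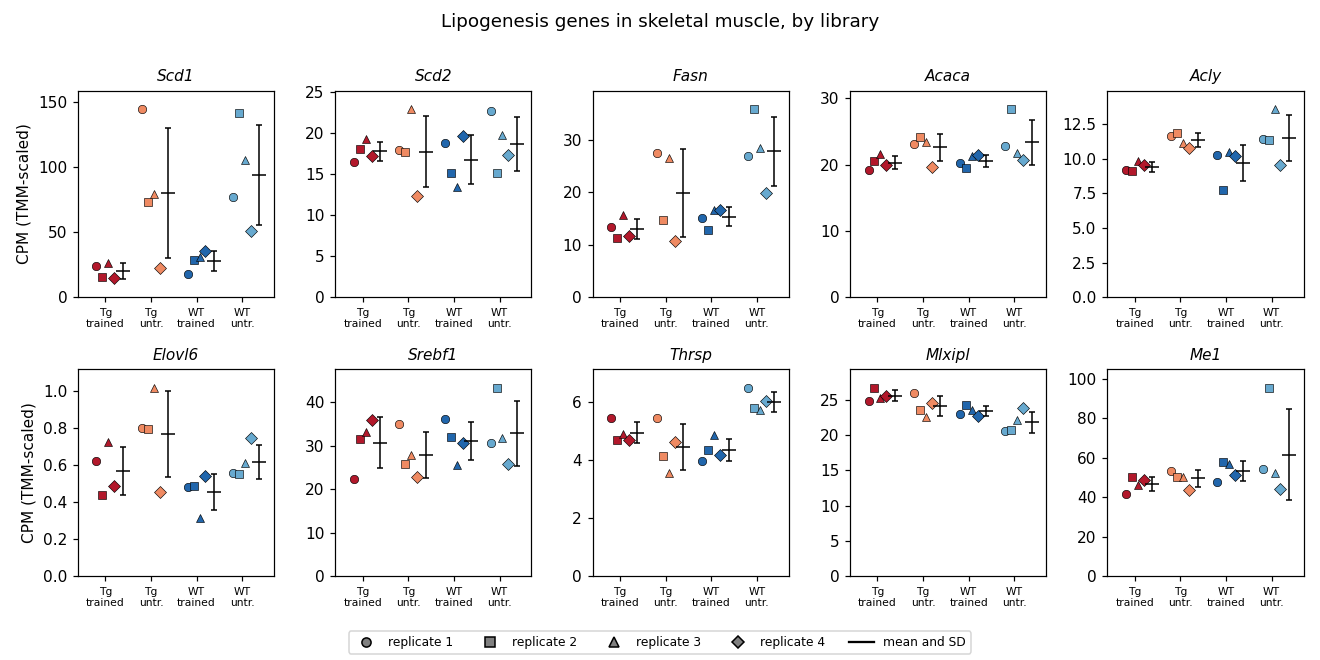
Levels of the 10 lipogenesis genes in CPM (linear axes from 0) in Tg trained, Tg untrained, WT trained and WT untrained muscle. Each symbol is a library, with its shape marking the replicate number, and the black bar is the mean with SD (n = 4). Scd1 lies at 14.5 to 35.8 CPM in the 8 trained libraries and at 22.5 to 144 CPM in the 8 untrained libraries.

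Fasn, the multi-domain synthase that makes palmitate, had the next largest training difference, and it did not pass the test in any of the 7 comparisons. It measured 13.4, 11.3, 15.6 and 11.7 CPM in Tg trained libraries, against 27.5, 14.8, 26.5 and 10.6 CPM in Tg untrained libraries. In WT muscle it measured 15.1, 12.8, 16.6 and 16.7 CPM after training, against 27.0, 35.8, 28.5 and 19.9 CPM without. As for Scd1, the WT groups were apart while the Tg groups overlapped, here through Tg untrained replicates 2 and 4. The log2FC averaged over genotypes was -0.74 (SE 0.173, adjusted p = 0.0770, edgeR), with -0.61 in Tg and -0.86 in WT. This difference crossed the threshold without the 3 Alb libraries (adjusted p = 0.0390), without Tg untrained replicate 4 (0.0164) and without WT trained replicate 4 (0.0477).

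The enzymes upstream of Fasn had smaller differences, none called. Acly, ATP citrate lyase, measured 9.21, 9.09, 9.84 and 9.59 CPM in Tg trained libraries, against 11.7, 11.8, 11.1 and 10.8 CPM in Tg untrained libraries, and these groups did not overlap. All 4 trained Tg libraries lay below all 4 untrained ones for 4.53% of tested genes. In WT muscle Acly measured 10.3, 7.78, 10.5 and 10.2 CPM after training, against 11.4, 11.4, 13.6 and 9.53 CPM without, and the groups overlapped. Its averaged log2FC was -0.26 (SE 0.0709, adjusted p = 0.123, edgeR).

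Acaca, the acetyl-CoA carboxylase that commits carbon to the pathway, averaged 20.3 ± 0.968 CPM in Tg trained and 22.6 ± 2.02 in Tg untrained muscle, and 20.6 ± 0.916 in WT trained and 23.4 ± 3.41 in WT untrained muscle (SD, n = 4). The groups overlapped in both genotypes, with an averaged log2FC of -0.17 (95% interval -0.30 to -0.04, adjusted p = 0.243, edgeR), or -0.08 without the Myh7 libraries. Me1, cytosolic malic enzyme, was between 41.8 and 58.1 CPM in 15 libraries and reached 95.4 CPM in WT untrained replicate 2. Its averaged log2FC was -0.15 (adjusted p = 0.615, edgeR), 0.01 without the 3 libraries of high Alb and -0.01 without the Myh7 libraries; WT untrained replicate 2 belongs to both sets. Elovl6, the elongase that makes stearate from palmitate, was the least abundant member at 0.314 to 1.02 CPM, or 12 to 56 counts per library. Its averaged log2FC of -0.43 (SE 0.172, adjusted p = 0.276, edgeR) was the largest after Fasn among the members not called, at a depth that leaves an interval of -0.79 to -0.06; without the Myh7 libraries it was -0.25.

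Neither of the transcription factor genes was called in any comparison. Srebf1 averaged 30.7 ± 5.89 CPM in Tg trained and 27.8 ± 5.19 in Tg untrained muscle, and 31.1 ± 4.36 in WT trained and 32.8 ± 7.40 in WT untrained muscle (SD, n = 4), with an averaged log2FC of 0.03 (95% interval -0.22 to 0.29, adjusted p = 0.930, edgeR), or 0.10 without the Alb and 0.13 without the Myh7 libraries. The files hold gene totals, so the SREBP-1a and SREBP-1c transcripts of Srebf1 were not separated. Mlxipl varied little, with a coefficient of variation between 2.97% and 6.73% within the groups. It measured 24.9, 26.7, 25.3 and 25.6 CPM in Tg trained libraries, against 26.0, 23.5, 22.6 and 24.5 CPM in Tg untrained libraries, and 23.1, 24.3, 23.6 and 22.7 CPM in WT trained libraries, against 20.7, 20.7, 22.1 and 23.8 CPM in WT untrained libraries. The averaged log2FC of Mlxipl was 0.09 (95% interval 0.01 to 0.18, adjusted p = 0.315, edgeR), opposite in sign to that of Scd1, and 0.04 without the Myh7 libraries.

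Thrsp had the largest difference in training response between the genotypes among the members, and that difference was not called. It measured 5.45, 4.70, 4.90 and 4.68 CPM in Tg trained libraries, against 5.44, 4.14, 3.56 and 4.61 CPM in Tg untrained libraries. In WT muscle it measured 3.98, 4.35, 4.87 and 4.18 CPM after training, against 6.47, 5.79, 5.73 and 6.02 CPM without. WT untrained muscle thus lay above the other 3 groups in every library, which ranged from 3.56 to 5.45 CPM. The log2FC was 0.15 in Tg (SE 0.109, adjusted p = 0.653, edgeR) and -0.47 in WT (SE 0.109, adjusted p = 0.187). Without the Myh7 libraries the Tg value was -0.03. The difference between those responses was 0.62 (SE 0.154), with an unadjusted p of 9.55e-04 that gave an adjusted p of 0.324 (edgeR), beside 0.0515% of tested genes that were called and 6.03% with an unadjusted p under 0.05.

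Over the 10 members, training averaged over genotypes gave a negative log2FC for 8, as for 49.5% of all tested genes, and a median of -0.16 against 0.00 for all genes. An unadjusted p under 0.05 was reached by 6 members and by 14.4% of tested genes. The members and the gene lists below were chosen with earlier results of these data known. Shares set beside those of all genes are therefore descriptive. In WT, 9 of 10 were negative (48.7% of tested genes) and 4 (Scd1, Fasn, Elovl6 and Thrsp) had all trained libraries below all untrained ones, as did 2.03% of tested genes; in Tg, 6 of 10 were negative (49.4%) and Acly alone was so separated. No member was called for training in WT, where 0.143% of tested genes were, or in Tg, where 0% were. Without adjustment, 4 members in WT and 3 in Tg had a p under 0.05, against 9.55% and 11.1% of tested genes (edgeR); DESeq2 called 2 members in WT, beside 0.389% of tested genes, and 1 in Tg, beside 0.72%, and limma-voom called none. The Tg and WT responses were compared directly for every member: for Scd1 the difference, Tg minus WT, was -0.26 with a 95% interval of -1.50 to 0.99 (adjusted p = 0.963, edgeR), which does not show that the responses are alike; it was -0.42 without the Alb and -0.54 without the Myh7 libraries.

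**Figure D2:**
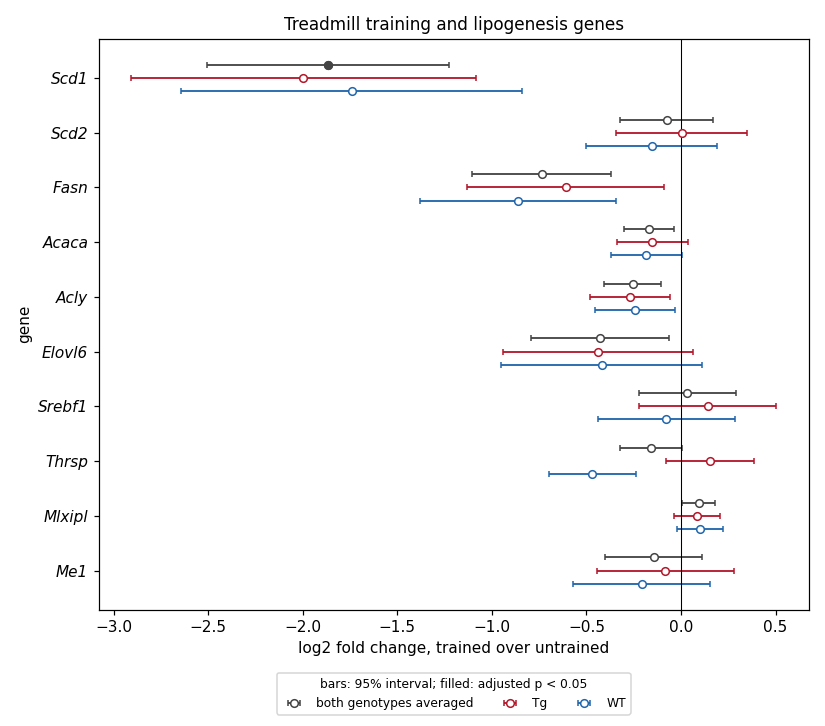
Log2 fold change of each lipogenesis gene, trained over untrained, averaged over both genotypes, in Tg and in WT (edgeR, bars are 95% intervals, filled symbols passed an adjusted p of 0.05). The single filled symbol is the averaged response of Scd1 at -1.87; the Thrsp values of Tg (0.15) and WT (-0.47) lie on opposite sides of 0.

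Promoters are shown for members of either sign: Fasn and Acly, whose averaged log2FC for training were negative, and Mlxipl, whose log2FC was positive. Of the 10 members 8 had entries in the RefSeq promoter set of GRCm38.p6 (12 start sites), and Scd1 and Scd2 were not among them. The 250 bases before a start site are given in the direction of transcription, with CCAAT boxes (CCAAT), GC boxes (GGGCGG) and the palindromic E-box (CACGTG) in capitals on either strand. Fasn is on chr11:120824548-120824797, minus strand, Acly on chr11:100528001-100528250, minus strand, and Mlxipl on chr5:135089640-135089889, plus strand.
Fasn: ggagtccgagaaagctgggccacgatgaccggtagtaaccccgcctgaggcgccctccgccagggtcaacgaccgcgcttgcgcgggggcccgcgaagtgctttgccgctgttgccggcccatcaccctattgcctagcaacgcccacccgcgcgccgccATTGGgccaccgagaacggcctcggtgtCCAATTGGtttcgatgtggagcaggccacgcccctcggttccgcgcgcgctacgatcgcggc
Acly: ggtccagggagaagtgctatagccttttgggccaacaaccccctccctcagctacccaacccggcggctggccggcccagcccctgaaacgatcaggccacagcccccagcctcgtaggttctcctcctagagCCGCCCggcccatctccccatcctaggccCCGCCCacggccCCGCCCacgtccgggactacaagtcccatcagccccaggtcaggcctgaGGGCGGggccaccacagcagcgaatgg
Mlxipl: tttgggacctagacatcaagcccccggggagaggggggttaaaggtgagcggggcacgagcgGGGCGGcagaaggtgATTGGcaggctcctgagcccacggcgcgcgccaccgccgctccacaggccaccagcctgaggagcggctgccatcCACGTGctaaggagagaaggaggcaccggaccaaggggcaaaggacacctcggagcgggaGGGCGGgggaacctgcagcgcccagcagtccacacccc

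In the Fasn window CCAAT boxes began 90, 62 and 59 bases before the start, and the last pair overlapped because CCAATTGG reads as the box on both strands. The Acly window held 4 GC boxes. The Mlxipl window held the E-box 98 bases before the start, 1 CCAAT box and 2 GC boxes. Over the 300 bases searched per start site, both strands counted, the CCAAT box was present in 7 of the 12 member promoters and in 37.4% of 32851 mouse promoters, the GC box in 5 and in 35.7%, and the E-box in 1 and in 7.15%. A loose form of the sterol regulatory element, TCACNCCAC, was in 1, a second start site of Mlxipl, and in 1.24%. These matches are letters in a window and say nothing of binding.

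The transgene gave no called difference in any member. In untrained muscle 0.743% of tested genes were called, and 2 members, Thrsp and Mlxipl, had an unadjusted p under 0.05, as did 16.2% of tested genes (edgeR; DESeq2 called 1 member, Thrsp, and 2.53% of tested genes). All Tg untrained libraries lay below all WT untrained libraries for Thrsp, as they did for 4.16% of tested genes, with a log2FC of -0.44 (SE 0.108, adjusted p = 0.0697, edgeR), or -0.28 without the Myh7 libraries. Scd1 had a log2FC of -0.23 there with an interval of -1.10 to 0.64, and its sign turned without Tg untrained replicate 4 (0.08), without WT untrained replicate 2 (0.04), without the Alb libraries (0.08) and without the Myh7 libraries (0.10).

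In trained muscle 0.0114% of tested genes were called between Tg and WT, and again no member. One member had an unadjusted p under 0.05, against 7.98% of tested genes (edgeR): Mlxipl, whose 4 Tg trained libraries (24.9 to 26.7 CPM) all lay above its 4 WT trained libraries (22.7 to 24.3 CPM), as was so for 2.94% of tested genes. Its log2FC was 0.13 (SE 0.0578, adjusted p = 0.598, edgeR). Averaged over training states, where 1.12% of tested genes were called, Mlxipl had a log2FC of 0.14 (SE 0.0409, adjusted p = 0.103, edgeR) and was the single member with an unadjusted p under 0.05, against 17.2% of tested genes. Fasn had -0.36 (adjusted p = 0.299), Me1 -0.25 (0.296) and Scd1 -0.36 (95% interval -0.98 to 0.26, adjusted p = 0.571). Without the Alb libraries Fasn had -0.205, Me1 -0.12 and Scd1 -0.13, and without the Myh7 libraries Me1 had -0.11 and Scd1 -0.17.

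**Figure D3:**
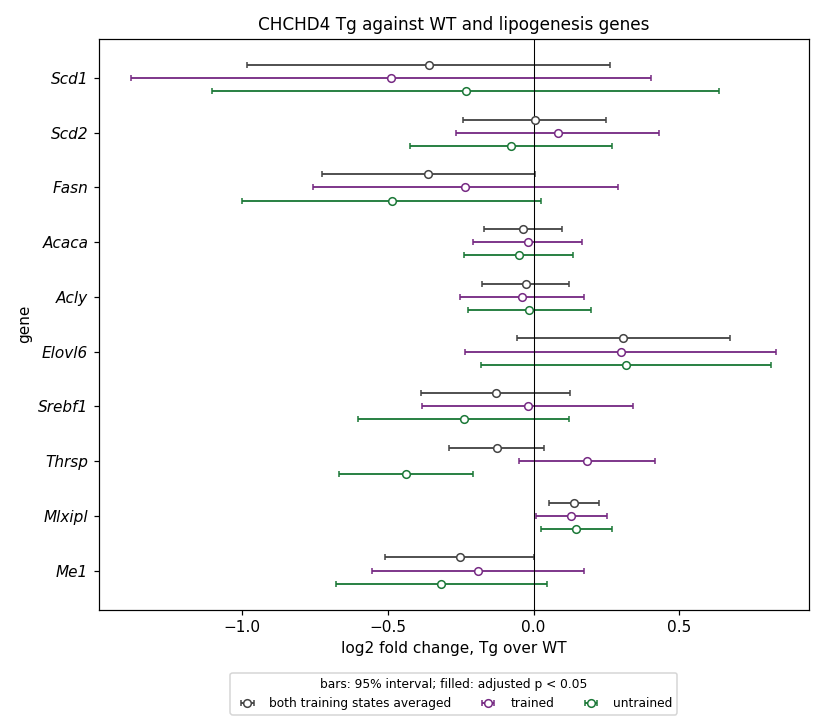
Log2 fold change of each lipogenesis gene, Tg over WT, averaged over both training states, in trained and in untrained muscle (edgeR, bars are 95% intervals, open symbols did not pass an adjusted p of 0.05). No symbol is filled; Thrsp in untrained muscle (-0.44) and Mlxipl, at 0.13 to 0.15 in the 3 comparisons, have intervals clear of 0.

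Levels per kilobase of exon, which can be compared between genes, placed Me1 first in both trained groups. In the untrained groups the mean of Scd1 was above that of Me1 by less than the spread between libraries: 16.3 ± 10.2 against 12.9 ± 1.07 CPM per kb in Tg untrained and 19.1 ± 7.89 against 16.02 ± 5.95 in WT untrained muscle (SD, n = 4). Without Tg untrained replicate 1 the order in that group turned, with Scd1 at 11.9 and Me1 at 12.5 CPM per kb. In Tg trained muscle Scd1 (4.09 CPM per kb) stood behind Me1 (12.2), Srebf1 (5.44) and Mlxipl (4.62). Each gap between neighbours among Srebf1, Mlxipl and Scd1 was smaller than the SD of Scd1. In WT trained muscle Scd1 (5.73) and Srebf1 (5.52) were within the spread of each other, and their order depends on the length used: per kilobase of the longest transcript Scd1 (5.80) stood behind Srebf1 (7.24) and Mlxipl (6.46). Fasn stood at 1.19 to 2.54 CPM per kb in the group means, and Elovl6 was last in each group at 0.0710 to 0.120 CPM per kb.

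Across the 16 libraries the levels of Fasn tracked those of Scd1 most closely among the members (Pearson r of log2 CPM = 0.902, and 0.859 after each group's mean was removed). Acaca (r = 0.792) and Acly (r = 0.699) followed, Srebf1 had r = 0.214, and Mlxipl was the one member with a negative value (r = -0.563). With each group's mean removed, Acaca had 0.671, Acly 0.331, Srebf1 0.415 and Mlxipl -0.192. Me1 (0.518) and Elovl6 (0.469) then stood above Srebf1 and Acly, so the order of the members depends on the group means. These values are descriptive, since the libraries fall into trained and untrained groups and share their scaling. Among 7475 other named genes with a mean of at least 5 CPM, the 10 most like Scd1 were Cfd, Trf, Mob1a, Slc1a5, Ccdc80, Dcp1a, Serp1, Il6st, Slc30a7 and C4b, with r between 0.837 and 0.927. With each group's mean removed, their r lay between 0.511 (Serp1) and 0.879 (Cfd). Cfd, which encodes the adipocyte-secreted protease adipsin, led at 0.927, and kept 0.896 without the 2 libraries farthest from the median of Scd1 (Tg untrained replicate 1 and WT untrained replicate 2, which left 14). Genes picked for likeness to Scd1, whose own level differed by training, are more likely to be lower with training. Of these 10 genes, Mob1a, Slc1a5, Serp1 and Il6st were themselves called lower with training averaged over genotypes, with log2FC from -0.57 to -0.26, beside 0.263% of all tested genes; given how they were picked, nothing is read from that count. With 1 library left out, Serp1 was called in all 16 fits, while Il6st lost its call in 12, and Mob1a and Slc1a5 in 13 each.

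White adipocyte markers moved with the training difference of Scd1. Of 14 markers 13 were tested, all 13 had a negative averaged log2FC, and 7 were called lower (edgeR), beside 0.263% of all tested genes: the adipokine genes Lep (-2.87), Adipoq (-1.95) and Retn (-1.99), the lipid-droplet genes Cidec (-2.02) and Plin1 (-1.87), and the adipogenic factors Cebpa (-0.95) and Pparg (-0.54). Some of these values rest on few counts in trained muscle. Summed over the 4 libraries of a group, Lep had 72 counts in Tg trained and 81 in WT trained muscle, and Retn had 22 and 52. Adipoq measured 1.12, 0.351, 1.97 and 0.427 CPM in Tg trained libraries, against 8.93, 4.48, 4.01 and 2.49 CPM in Tg untrained libraries. In WT muscle it measured 0.781, 2.22, 1.57 and 1.77 CPM after training, against 4.04, 8.41, 3.51 and 2.22 CPM without. With the replicate block 1 of these 7, Lep, was called, and 2, Lep and Pparg, without the Myh7 libraries. Without the Alb libraries all 7 were called, in a fit that called 584 of 17490 tested genes. Lep was also called with any 1 library left out, while Cidec lost its call in 7 of the 16 fits, Adipoq in 11 and each of the other 4 in 12, with the log2FC negative throughout and adjusted p at most 0.114. Within a genotype none was called, with 13 of 13 negative in Tg and 12 of 13 in WT. The same 2 libraries, Tg untrained replicate 1 and WT untrained replicate 2, were highest for both Scd1 and Adipoq.

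The summed level of the 14 markers was 244 to 286 CPM in Tg trained, 335 to 396 in Tg untrained, 272 to 462 in WT trained and 366 to 384 in WT untrained libraries, and most of it was Plin4 and Fabp4, whose averaged log2FC were -0.19 and -0.11, neither called. The log2 ratio of Scd1 to Adipoq was 4.67 ± 0.748 in Tg trained and 3.88 ± 0.486 in Tg untrained muscle, and 4.19 ± 0.360 in WT trained and 4.44 ± 0.362 in WT untrained muscle (SD, n = 4), so its ranges overlapped in both genotypes. The ratio of Fasn to Adipoq was 4.09 ± 0.961 in Tg trained against 2.04 ± 0.498 in Tg untrained muscle, where the ranges did not overlap, and 3.36 ± 0.715 in WT trained against 2.75 ± 0.476 in WT untrained muscle, where they did. The part of adipocyte content in the training difference of Scd1 was not tested.

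Of 4 brown adipocyte markers 3 were tested and none was called for training averaged over genotypes. Ucp1, the uncoupling protein gene that defines these cells, had 0 counts in the Tg trained, Tg untrained and WT untrained groups and 2 counts in all in the WT trained group, and was not tested. Cidea, a lipid-droplet gene, had a log2FC of 0.96 (adjusted p = 0.0991, edgeR; 0.0382 without Tg untrained replicate 4), opposite in sign to the white adipocyte markers, at 0.246 to 0.275 CPM in Tg trained and 0.1003 to 0.329 in Tg untrained libraries, and 0.312 to 0.465 in WT trained and 0.0599 to 0.189 in WT untrained libraries. Cox7a1, a cytochrome oxidase subunit that muscle also expresses, had 0.25 (0.13 without WT untrained replicate 2), and the deiodinase gene Dio2 had -0.23 (-0.15 without WT trained replicate 3). The list summed to 134 to 140.5 CPM in Tg trained, 92.3 to 132 in Tg untrained, 112 to 139 in WT trained and 53.1 to 128 in WT untrained libraries, nearly all of it Cox7a1. Hepatocyte markers, of which 2 of 10 were tested, summed to 0.228 to 0.512 CPM in Tg trained, 0.236 to 26.0 in Tg untrained, 0.371 to 60.5 in WT trained and 0.424 to 25.5 in WT untrained libraries, none called. Of 10 fibroblast and fibro-adipogenic progenitor markers all had a negative averaged log2FC for training with none called (median -0.42). 7 of them had an unadjusted p under 0.05, against 14.4% of tested genes (edgeR). Their sums were 487 to 763 CPM in Tg trained and 622 to 990 in Tg untrained libraries, and 493 to 985 in WT trained and 740 to 1000 in WT untrained libraries. Of 10 macrophage markers 8 had a negative averaged log2FC for training with none called (median -0.41). The 3 with an unadjusted p under 0.05 (edgeR) were the mannose receptor gene Mrc1 (-0.50), the scavenger receptor gene Cd163 (-0.41) and the complement gene C1qa (-0.49). Their sums were 30.7 to 43.2 CPM in Tg trained and 35.0 to 65.4 in Tg untrained libraries, and 33.1 to 109 in WT trained and 54.7 to 92.5 in WT untrained libraries. The part of these cell types in the result was not tested.

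**Figure D4:**
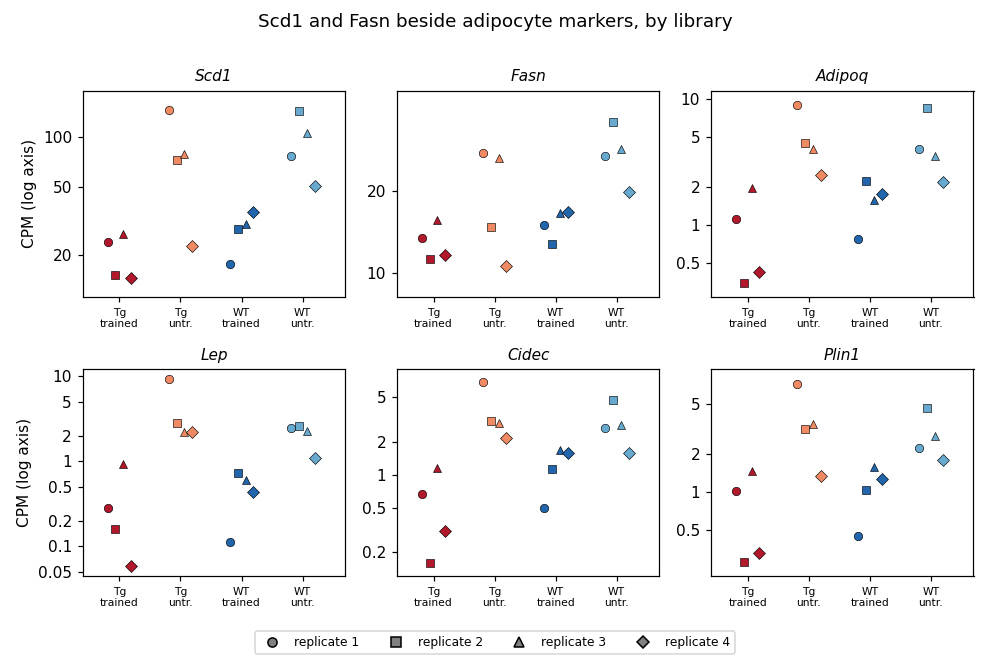
Levels of Scd1, Fasn and the adipocyte genes Adipoq, Lep, Cidec and Plin1 in CPM on log axes, by library, in Tg trained, Tg untrained, WT trained and WT untrained muscle; shapes mark replicate numbers. Tg untrained replicate 1 and WT untrained replicate 2 are highest for Scd1 (144 and 141 CPM) and for Adipoq (8.93 and 8.41 CPM).

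Around the core enzymes, the supply of carbon and NADPH and the elongation of fatty acids showed 1 called gene for training averaged over genotypes among 23 tested of 26 listed. Beside 0.194% of all tested genes called higher, Idh1, the cytosolic isocitrate dehydrogenase that makes NADPH, rose by 0.21 on the log2 scale (SE 0.0412, adjusted p = 0.0357, edgeR; not called in 12 of the 16 fits with 1 library left out, nor with the replicate block), and was at 15.7 ± 1.07 CPM in Tg trained and 13.4 ± 0.638 in Tg untrained muscle, and 14.7 ± 0.638 in WT trained and 12.8 ± 0.230 in WT untrained muscle (SD, n = 4). Slc25a1, the carrier that exports citrate from the mitochondrion, had -0.38 (adjusted p = 0.135) without being called. The 14 negative and 9 positive values had a median of -0.08, beside 0.00 for all genes. An unadjusted p under 0.05 was reached by 7 of the 23, a share above the 14.4% of all tested genes (edgeR). For Tg averaged over training states 1 gene of this list was called lower, as were 0.503% of tested genes: Hacd3, a dehydratase of very-long-chain fatty acid elongation, fell by 0.23 on the log2 scale (SE 0.0541, adjusted p = 0.04996, edgeR), with means of 6.67 CPM in Tg trained and 6.34 in Tg untrained muscle, against 7.34 in WT trained and 7.95 in WT untrained muscle. It too lost its call in 12 of the 16 fits with 1 library left out.

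None of the 24 listed regulators of lipogenesis, all tested, was called for training averaged over genotypes; 11 values were negative and 13 positive. Those with the smallest p were the insulin receptor substrate Irs1 (0.35), Srebf2 (-0.18), which encodes the sterol-regulating SREBP-2, and Lpin1 (0.12); Irs1 was called without WT untrained replicate 2 (0.245, adjusted p = 0.0466, edgeR). Triglyceride synthesis, with 16 of 17 genes tested, had 8 negative and 8 positive values and none called, and its smallest p were those of the acyl-CoA synthetase gene Acsl5 (-0.21), the phosphatidate phosphatase gene Lpin2 (-0.84) and Lpin1. The Lpin2 value rests on WT untrained replicate 2, at 21.8 CPM beside 2.33 to 4.62 CPM in the other 15 libraries, and was -0.21 without it. Cholesterol synthesis, with 22 of 23 tested, had 11 of each sign, none called and a median of 0.00; the mevalonate enzymes Mvd (0.29), Pmvk (0.10) and Mvk (0.10) had its smallest p. At an unadjusted p under 0.05 there were 3, 3 and 1 genes in these lists of 24, 16 and 22 tested, beside 14.4% of all tested genes, a share that the first 2 lists are near and the last is below.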

How the data were processed

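RNA came from an RNeasy kit and the libraries from a SMARTer mRNA-seq kit, per the labels' protocols. Per the submitters' processing notes, STAR 2.7.8a, RSEM 1.3.2 and the mm10 build were used; the annotation release and strand setting are not given in the sources used here. The deposited table holds the authors' RSEM expected counts, not normalized, for 55487 genes (12.48% of values not whole). After rounding to integers, filterByExpr by group kept 17490 genes, and all 16 libraries entered 1 edgeR 4.0.16 quasi-likelihood model (R 4.3.3, TMM factors 0.924 to 1.285, biological coefficient of variation 14.14%) with a mean per group. The 7 comparisons were training and Tg within each level of the other factor, each averaged over it, and the difference of responses, all tested by edgeR with p-values adjusted (Benjamini-Hochberg) over all tested genes and called under 0.05. The script was tested on simulated data.

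The 10 members and the gene lists were chosen with earlier results of these data known. Named genes are mainly the members, the called members of a list or up to 3 of smallest p, and the 10 genes most correlated with Scd1 (log2 CPM, prior count 2). Some genes were named outside this rule, among them Slc25a1, Plin4, Fabp4, Acta1, Mb and the genes most like Me1. For some marker lists no gene was named. Positions and exon lengths came from the GENCODE annotation of GRCm38, in which 54435 of 55487 versioned identifiers were found. No replicate pair agreed within sampling noise (lowest chi-square per degree of freedom 7.28). The alternatives were DESeq2 1.42.0, limma-voom (limma 3.58.1), RLE scaling, testing without a filter or with a minimum CPM of 1 in 4 libraries, robust dispersion, a replicate block, the 8 libraries compared alone, removal of mitochondrial rRNA, each library left out, and both sets of libraries with Alb or Myh7 above 10 CPM left out.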

Additional observations from a re-analysis of the deposited data

Results flagged for a closer look

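Acly in WT trained replicate 2 was at 7.78 CPM, while the other 3 WT trained libraries lay between 10.2 and 10.5 CPM. Its gap to the nearest of them was 0.879 of the whole range of the group, above Dixon's limit for 4 samples. It was the 1 group so marked of 40 examined (10 genes in 4 groups), and chance marks about 1 in 20 groups.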

How the results depend on the processing

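The averaged training response of Scd1 stayed negative under all 10 other settings (log2FC -1.88 to -1.73) and with each library left out (-2.03 to -1.64), and passed the threshold under 8 of the 10. The number of members called for training averaged over genotypes, 1 in the report, was 2 with no filter, 3 with DESeq2, 2 without the Alb libraries, 0 without the Myh7 libraries, and 0 to 2 with a library left out. The added calls were Fasn, and with DESeq2 also Acly. Calls over all genes rose in the same settings. They were 80 of 17490 in the report, 106 of 33769 with no filter, 367 of 17490 with DESeq2 and 584 of 17490 without the Alb libraries. For training in WT the number of members called was 2 with DESeq2 (Scd1 and Thrsp) and 0 to 1 with a library left out (Scd1 without Tg untrained replicate 4, adjusted p = 0.0446, edgeR). For training in Tg it was 1 with DESeq2 (Scd1, adjusted p = 0.00824) and 0 to 1 with a library left out (Scd1 without WT untrained replicate 2, adjusted p = 0.0463, edgeR). For Tg against WT in untrained muscle it was 1 with DESeq2 and 0 to 1 with a library left out (Thrsp, adjusted p = 0.0149 with DESeq2, and 0.0280 with edgeR without Tg untrained replicate 1), and for Tg averaged over training states it was 1 with DESeq2 (Mlxipl, adjusted p = 0.0388). In these 4 comparisons DESeq2 called 0.389% (training in WT), 0.72% (training in Tg), 2.53% (untrained Tg against WT) and 3.65% (Tg averaged) of tested genes. The cause was not tested.

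Signs turned in small values. For training averaged over genotypes, Scd2 was at 0.037 without the Myh7 libraries, Me1 at 0.011 without the Alb libraries, and Srebf1 ran from -0.018 to 0.11 with a library left out. Thrsp for training in Tg was at -0.027 without the Myh7 libraries. Scd1 in untrained Tg against WT was at 0.077 without the Alb libraries, 0.099 without the Myh7 libraries, and ran from -0.686 to 0.083 with a library left out, and its difference of responses ran from -0.57 to 0.20. Over all 70 values (10 members in 7 comparisons) 26 turned sign somewhere, none with an adjusted p under 0.367. Elovl6 has no value under the CPM filter. The median of all genes moved by at most 0.0132. The left-out values of list genes and of levels per kilobase were added after the data were seen.

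With the replicate block, 0 members were called for training averaged over genotypes (Scd1 -1.76, adjusted p = 0.0542, edgeR), and all-gene calls there were 16 against 80. Of 24 same-numbered pairs 6 had a correlation of deviations above 0.1 (range -0.153 to 0.176). Pairs of unlike number were not examined, so this does not settle whether the numbers pair the samples.

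Calls over all genes moved with the setting. Training averaged had 80, against 367 with DESeq2, 584 without the Alb libraries, 41 without the Myh7 libraries and 15 to 389 with a library left out. Training in WT had 25, against 68 with DESeq2, 42 without the Alb libraries and 10 in the 8 libraries alone. Training in Tg had 0, against 126 with DESeq2, 104 without the Alb libraries, 5 with no filter, 9 without the Myh7 libraries, 123 in the 8 libraries alone and 0 to 93 with a library left out. Tg against WT in untrained muscle had 130, against 442 with DESeq2, 66 with the block, 32 without the Myh7 libraries, 40 in the 8 libraries alone and 43 to 138 with a library left out. Tg against WT in trained muscle had 2, against 54 with DESeq2, 5 in the 8 libraries alone, 1 with either filter change or the block, and 1 to 16 with a library left out. The difference of responses had 9, against 35 with DESeq2, 15 with no filter and 4 without the Myh7 libraries. Tg averaged over training states had 196, against 639 with DESeq2 and 29 to 374 with a library left out.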

Other observations

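Me1 in WT untrained replicate 2 (95.4 CPM, against 44.2 to 54.6 CPM in the other WT untrained libraries) stood out together with other genes. The genes whose levels were most like those of Me1, chosen after its values were seen, were Tulp4 (Pearson r = 0.958 over 16 libraries), Clip1 (0.947) and the atrophy ubiquitin ligase gene Fbxo32 (0.938). Without WT untrained replicate 2 and Tg trained replicate 1, the libraries farthest from the median of Me1, these were 0.841, 0.679 and 0.672. The same library had the highest TMM factor (1.285), Alb at 14.9 CPM, and the lowest Ckm (5082 CPM) and Acta1 (5287 CPM), the skeletal actin gene. Its part in the level of Me1 was not tested.

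Within Tg muscle, the log2 ratio of Scd1 to Fasn was 0.58 ± 0.248 in trained and 1.84 ± 0.620 in untrained libraries, and within WT muscle it was 0.83 ± 0.427 in trained and 1.68 ± 0.292 in untrained libraries (SD, n = 4), with ranges that did not overlap in either genotype. Scd1 took 10.6% ± 3.09 of the summed CPM of the 10 members in Tg trained and 28.5% ± 11.8 in Tg untrained muscle, and 13.7% ± 3.31 in WT trained and 30.5% ± 5.80 in WT untrained muscle.

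The fast fibre and tissue check list, which includes Acta1, Ckm and Mb, had 10 of 10 positive averaged log2FC for training. None was called (median 0.14), and 49.5% of all tested genes had a negative value. The list summed to 48772 CPM in WT untrained replicate 2, against 75424 to 78983 CPM in the other WT untrained libraries. Sums were 70913 to 82765 CPM in WT trained, 72334 to 76879 in Tg trained and 63670 to 77087 in Tg untrained libraries. In this list Myh2, the fast oxidative IIA myosin, was called higher in Tg averaged over training states (log2FC 1.39, adjusted p = 0.0203, edgeR), beside 0.617% of tested genes. It averaged 1492 ± 381 CPM in Tg trained and 1194 ± 405 in Tg untrained muscle, against 589.5 ± 73.0 in WT trained and 439 ± 219 in WT untrained muscle (SD, n = 4), and its call was lost without Tg trained replicate 4 (adjusted p = 0.0521, edgeR). Endothelial markers had 8 of 8 positive values in both the training and the Tg average, with none called. Negative values were held by 49.5% and 50.2% of all tested genes in these 2 comparisons. The endothelial sums were 210 to 247 CPM in Tg trained, 200 to 242 in Tg untrained and 186 to 225 in WT trained libraries. In WT untrained libraries they were 147 to 206 CPM, with the lowest in replicate 2. Macrophage markers were negative in 10 of 10 for Tg averaged over training states (median -0.71), with none called, and Schwann cell markers were positive in 12 of 12 (median 0.40), with none called. The Schwann cell sums were 34.3 to 73.2 CPM in Tg trained and 38.9 to 94.2 in Tg untrained libraries. They were 33.7 to 59.1 CPM in WT trained and 31.1 to 52.1 in WT untrained libraries, so the genotypes overlapped. Slow fibre markers had medians of -0.40 for training averaged over genotypes and 0.34 for Tg averaged over training states, with none called. Their highest sums were 199 and 169 CPM in Tg untrained replicates 2 and 3 and 119 CPM in WT trained replicate 3. These are libraries high in Myh7, a gene of this list. The other Tg untrained libraries summed to 66.3 and 71.0 CPM.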
